A study of Homo sapiens with 6 samples.

Results

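The 7 genes described here encode core members of the RAS-RAF-MEK-ERK cascade: the small GTPases HRAS and NRAS, the RAF kinases ARAF and BRAF, the kinases MEK1 (MAP2K1) and MEK2 (MAP2K2), and the kinase ERK1 (MAPK3). They were taken by gene name from a deposited table of 33539 genes, by a rule with no threshold on their values, although earlier results of these data were known. RNA came from 8505C, a human cell line derived from an anaplastic thyroid carcinoma, an undifferentiated and aggressive tumour. In 3 libraries the cells had received an siRNA against POLR1F (siPOLR1F), a subunit of the RNA polymerase that transcribes ribosomal RNA genes. In 3 libraries they had received a negative control siRNA (NC). Both groups were harvested after 24 h, grew in serum-containing medium and carried the same batch label. The study's title links POLR1F to F2R and p38 MAPK signalling, and the comparison asks whether the core of the neighbouring ERK cascade changed at the RNA level.

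In this cascade an active receptor loads RAS with GTP, RAS recruits RAF to the membrane, RAF phosphorylates MEK, and MEK phosphorylates ERK, which acts on kinases and transcription factors. The members are controlled mainly by GTP loading, phosphorylation and complex formation, none of which is measured by RNA sequencing. BRAF mutations that keep the kinase active are common in thyroid carcinoma, and 8505C is known to carry one. These gene counts do not show alleles.

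Of the 7 genes, BRAF rose in siPOLR1F, at 1.26 times the NC level, and the other 6 did not pass the test. The BRAF call (edgeR adjusted p = 0.0380) was lost in 9 of 15 alternatives, with the summed count given next among them. BRAF shares 3464 bases with NDUFB2, a gene on the opposite strand that fell. When both were counted as 1 gene, a step added after the data were seen, the log2 fold change was -0.04. The mean counts of BRAF and NDUFB2 differed by 378 and -443 (siPOLR1F minus NC), so their sum could change little. Why they differed was not tested. MAP2K1 and HRAS each had a log2 fold change of 0.16 and NRAS one of 0.11, while ARAF, MAP2K2 and MAPK3 lay within 0.02 of 0. The 7 genes held between 642 and 653 CPM (counts scaled to the library total) in the siPOLR1F libraries and between 595 and 624 in the NC libraries.

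Each library held between 60576788 and 63038378 deposited counts. POLR1F itself was at 2.09, 1.42 and 1.505 FPKM (counts scaled by gene length and library size) in the siPOLR1F libraries, against 8.80, 8.42 and 7.64 FPKM in the NC libraries. By edgeR the log2 change was -2.30 (SE 0.15; adjusted p = 9.76e-05). Of the thyroid markers, thyroglobulin (TG) did not exceed 0.012 FPKM and PAX8 lay between 0.218 and 0.777 FPKM in the 6 libraries, while NKX2-1 averaged 27.5 ± 1.62 FPKM in siPOLR1F and 45.2 ± 3.02 FPKM in NC (SD, n = 3 each) and fell (edgeR adjusted p = 4.3e-04). The cytoskeletal genes KRT8 and VIM were abundant, at 92.8 to 125 and 639 to 695 FPKM, as was KRT18, at 133 to 173 FPKM. Other epithelial markers were low: CDH1 did not exceed 0.051 FPKM, EPCAM 1.05 FPKM and KRT19 0.999 FPKM. The leukocyte gene PTPRC did not exceed 0.0091 FPKM, but CD68, listed as a leukocyte marker too, lay between 7.51 and 15.7 FPKM. KRT8 also fell, by 0.25 on the log2 scale (edgeR adjusted p = 0.020), and the part of such marker changes in the results was not tested. No label tells whether replicates were separate cultures, so the p-values reflect only library-to-library spread, possibly technical. In such bulk RNA a change in level per cell and a change in the number of cells with the transcript cannot be told apart.

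The RAS genes stand at the head of the cascade. HRAS (ENSG00000174775, GRCh38 chromosome 11, 532242 to 535576, minus strand) had counts of 3524, 3847 and 3928 in siPOLR1F, against 3134, 3482 and 3460 in NC. The groups overlapped in FPKM, since the lowest siPOLR1F library, at 20.9 FPKM, lay below the highest NC library, at 21.2 FPKM. Their unscaled counts did not overlap. HRAS averaged 22.2 ± 1.22 FPKM in siPOLR1F and 19.98 ± 1.51 FPKM in NC (SD, n = 3 each). Its log2 fold change was 0.16 (95% interval -0.0094 to 0.33; edgeR adjusted p = 0.173). NRAS (ENSG00000213281, chromosome 1, 114704469 to 114716771, minus strand) had counts of 6857, 6837 and 7231 in siPOLR1F, against 6879, 6218 and 6297 in NC. NC replicate 1 was above 2 of the 3 siPOLR1F libraries in these counts, and above the lowest of them alone in FPKM (22.6 against 22.5). The FPKM averaged 23.1 ± 0.850 in siPOLR1F and 21.6 ± 0.858 in NC (SD, n = 3 each), with a log2 fold change of 0.11 (95% interval -0.03 to 0.24; edgeR adjusted p = 0.239).

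Promoter sequence was taken from RefSeq (GRCh38.p14), 250 bases before to 50 after each start, for all 7 genes. The GC content was 80.7% for MAPK3, 78.0% for HRAS, 73.7% for MAP2K2, 72% for MAP2K1, 63.0% for BRAF, 60.3% for ARAF and 57.3% for NRAS, against a median of 58.7% over 35116 promoters. The GC box GGGCGG, a motif of the factor SP1, was searched on both strands and occurred in 5 of the 7, against 44.95% of all promoters. The ETS-type motif CCGGAAG, also on both strands, occurred in HRAS and NRAS, against 10.3% of all promoters. No base of the 7 windows belonged to both motifs. ARAF and BRAF held neither in these windows, and the BRAF window starts from a point 661 bases inside the 5′ end given in the deposited table. The windows of HRAS (chr11:535527-535826, minus strand) and NRAS (chr1:114716722-114717021, minus strand) are printed 5′ to 3′ because they are the members with both motifs, which are in capitals.
HRAS: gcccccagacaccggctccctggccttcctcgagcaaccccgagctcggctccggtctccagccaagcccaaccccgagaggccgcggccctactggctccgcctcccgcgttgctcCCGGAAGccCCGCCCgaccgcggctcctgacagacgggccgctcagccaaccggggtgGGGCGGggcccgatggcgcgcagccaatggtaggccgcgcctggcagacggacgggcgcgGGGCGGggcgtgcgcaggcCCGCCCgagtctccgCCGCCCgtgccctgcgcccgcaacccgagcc
NRAS: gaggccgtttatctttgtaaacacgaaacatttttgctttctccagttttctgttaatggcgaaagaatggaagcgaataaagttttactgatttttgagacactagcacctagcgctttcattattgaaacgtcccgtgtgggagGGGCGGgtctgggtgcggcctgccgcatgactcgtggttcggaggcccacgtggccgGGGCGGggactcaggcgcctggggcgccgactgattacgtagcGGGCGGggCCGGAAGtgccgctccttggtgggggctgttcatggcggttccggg
HRAS held 5 GC boxes and NRAS 3, and each held 1 CCGGAAG. A match describes the letters and does not show that a factor binds.

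The RAF kinases are the enzymes that RAS recruits, and ARAF stood far above BRAF in level. ARAF (ENSG00000078061, chromosome X, 47561205 to 47571908, plus strand) had counts of 4486, 5024 and 4893 in siPOLR1F, against 4393, 4801 and 5123 in NC. The lowest and the highest of the 6 libraries were both NC. ARAF averaged 20.2 ± 1.07 FPKM in siPOLR1F and 20.3 ± 1.75 FPKM in NC (SD, n = 3 each). Its log2 fold change was 0.0040 (95% interval -0.17 to 0.17; edgeR adjusted p = 0.980). BRAF (ENSG00000157764, chromosome 7, 140719327 to 140924929, minus strand) had counts of 1964, 1845 and 1576 in siPOLR1F, against 1423, 1373 and 1455 in NC. Each siPOLR1F library was above each NC library, and the siPOLR1F libraries were the more spread of the 2 groups. BRAF averaged 1.10 ± 0.121 FPKM in siPOLR1F and 0.871 ± 0.0163 FPKM in NC (SD, n = 3 each). The log2 fold change was 0.34 (SE 0.09; 95% interval 0.13 to 0.55; edgeR adjusted p = 0.0380), and an exact two-sided permutation test gave 0.1, its lower limit with 3 libraries a group.

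The BRAF call rested on the full set of libraries. It was lost without NC replicate 1 (edgeR adjusted p = 0.0917), NC replicate 2 (0.0880), NC replicate 3 (0.0912), siPOLR1F replicate 1 (0.121) or siPOLR1F replicate 2 (0.103). Without siPOLR1F replicate 3 it passed (0.0272). The log2 fold change without 1 library lay between 0.26 and 0.42. It was also lost with limma on log2(FPKM + 1), where the log2 fold change was 0.16 on that scale (adjusted p = 0.173), with limma on log2(FPKM + 0.1), where it was 0.30 (adjusted p = 0.177), and without an expression filter (edgeR adjusted p = 0.106). Over the alternatives that tested BRAF by itself the adjusted p lay between 0.00991 (DESeq2) and 0.177. With NDUFB2 counted in, which tests the pair, the edgeR adjusted p was 0.792.

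**Figure D1:**
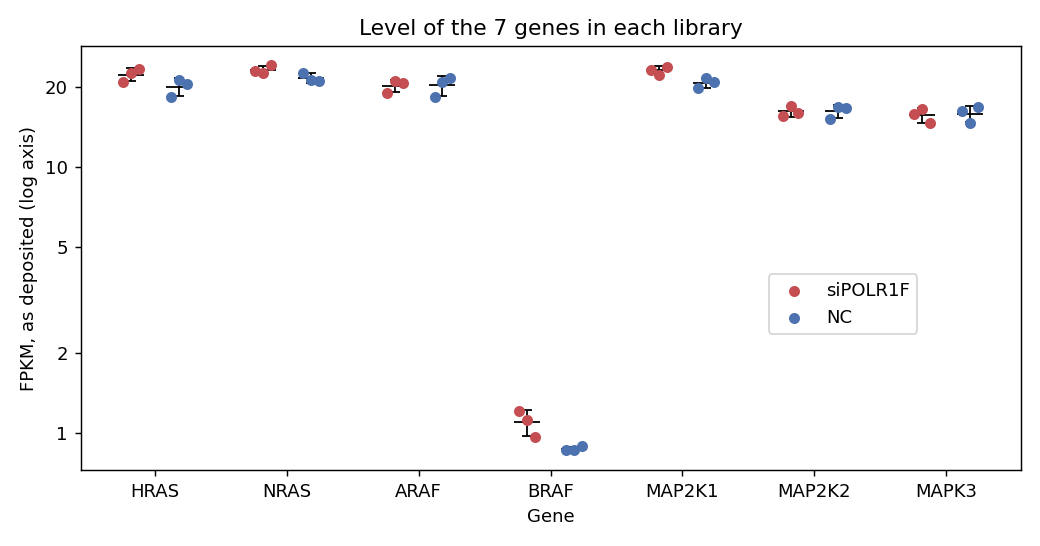
Deposited FPKM of the 7 genes in each of the 6 libraries, on a log axis. Points are libraries, and bars are the mean and SD of 3 libraries. BRAF lies near 1 FPKM and the other 6 genes between 14.6 and 24.1 FPKM.

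BRAF lies tail to tail with NDUFB2, a gene for a subunit of mitochondrial complex I. In the deposited coordinates NDUFB2 (chromosome 7, 140690777 to 140722790, plus strand) overlaps the 3′ end of BRAF. NDUFB2 had counts of 1099, 1165 and 1004 in siPOLR1F, against 1560, 1547 and 1491 in NC. Each siPOLR1F library was below each NC library, and the log2 change was -0.50 (SE 0.08) by edgeR (adjusted p = 0.00537). The mean count of BRAF was 378 higher in siPOLR1F than in NC, and the mean count of NDUFB2 differed by -443 (siPOLR1F minus NC). Counted as 1 gene, the pair had 3063, 3010 and 2580 counts in siPOLR1F, against 2983, 2920 and 2946 in NC. The groups overlapped, with a log2 fold change of -0.04 (95% interval -0.22 to 0.14; edgeR adjusted p = 0.792). The authors' strand setting is not given in the sources used here, and without it reads from the shared bases cannot be assigned to 1 of the genes. Whether reads moved between them in the counting was not tested. The summed count cannot tell, since opposite changes of similar size cancel in any case.

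**Figure D2:**
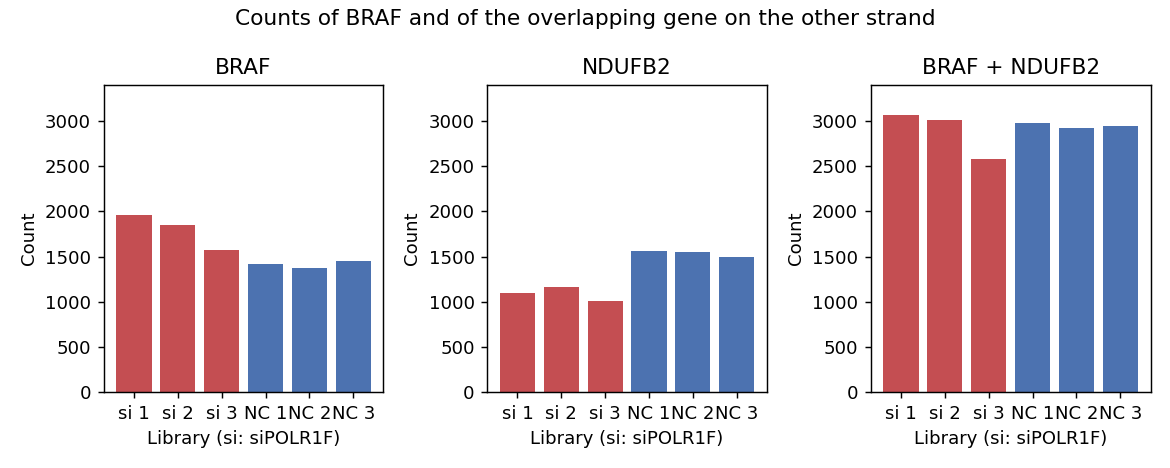
Counts of BRAF, of the overlapping gene NDUFB2 and of their sum in each library; bars start at 0, siPOLR1F libraries are red and NC libraries blue. BRAF is higher and NDUFB2 lower in the siPOLR1F libraries, and the sums overlap, with siPOLR1F replicate 3 lowest at 2580.

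The MEK genes encode the kinases that activate ERK. MAP2K1 (ENSG00000169032, chromosome 15, 66386837 to 66491656, plus strand) had counts of 10376, 10071 and 10666 in siPOLR1F, against 8991, 9432 and 9359 in NC. Each siPOLR1F library was above each NC library. MAP2K1 averaged 23.0 ± 0.823 FPKM in siPOLR1F and 20.7 ± 0.935 FPKM in NC (SD, n = 3 each). Its log2 fold change was 0.16 (SE 0.06; 95% interval 0.03 to 0.29, without correction for the number of genes), and its edgeR adjusted p was 0.0839. It did not pass under any alternative (0.0554 with DESeq2 to 0.236 without siPOLR1F replicate 3). MAP2K2 (ENSG00000126934, chromosome 19, 4090321 to 4124122, minus strand) had counts of 8402, 9293 and 8572 in siPOLR1F, against 8256, 8841 and 8967 in NC. The groups overlapped, with siPOLR1F replicate 2 highest and NC replicate 1 lowest. MAP2K2 averaged 16.2 ± 0.740 FPKM in siPOLR1F and 16.2 ± 0.954 FPKM in NC (SD, n = 3 each), with a log2 fold change of 0.0064 (95% interval -0.13 to 0.14; edgeR adjusted p = 0.956).

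MAPK3 encodes ERK1, the last kinase of the chain. This gene (ENSG00000102882, chromosome 16, 30114105 to 30123309, minus strand) had counts of 4029, 4262 and 3717 in siPOLR1F, against 4184, 3616 and 4274 in NC. The lowest and the highest of the 6 libraries were again both NC. MAPK3 averaged 15.6 ± 0.970 FPKM in siPOLR1F and 15.8 ± 1.13 FPKM in NC (SD, n = 3 each). Its log2 fold change was -0.01 (95% interval -0.18 to 0.16; edgeR adjusted p = 0.942). For MAPK3 the interval allows a change of between 0.880 and 1.12 times the NC level, for ARAF between 0.892 and 1.13 times, and for MAP2K2 between 0.913 and 1.10 times.

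**Figure D3:**
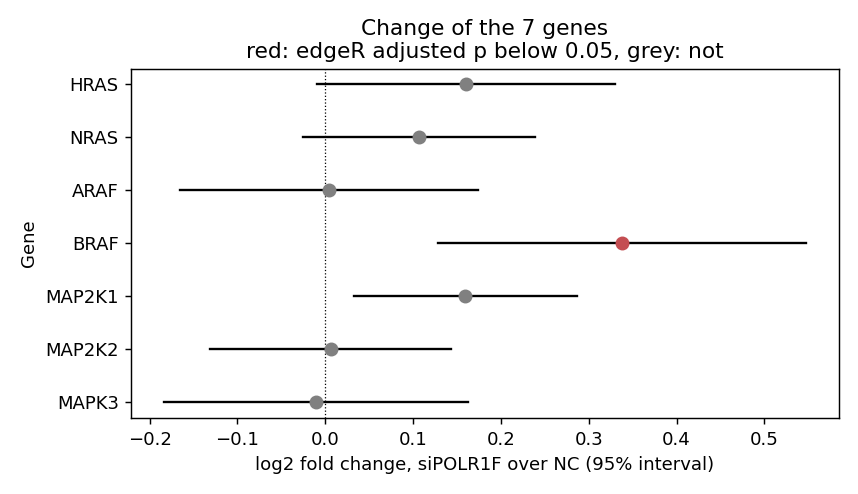
Log2 fold change of the 7 genes, siPOLR1F over NC, from edgeR, with 95% intervals that are not corrected for the number of genes. BRAF (0.34) passed at an adjusted p of 0.05 and is red; the others are grey.

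All 7 genes passed the filter on low values. Of them, 1 rose and 6 did not pass, which is 14.3% called, against 17.2% of the 13564 genes tested. Counted by direction, 10.3% of all genes tested rose and 6.94% fell. No member fell, and none was lower at an unadjusted p under 0.05 by edgeR, DESeq2 or limma; 2 members, BRAF and MAP2K1, were higher at that unadjusted level by edgeR. The groups did not overlap in FPKM for BRAF and MAP2K1, both higher in siPOLR1F, against 18.9% of all genes tested with that pattern. The median log2 fold change was 0.11 over the 7 genes and -0.01 over all genes tested. The share called among the members is near the share among all genes.

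The balance of the 2 genes within a layer did not pass a test in any layer. The log2 ratio of ARAF to BRAF counts was 1.19, 1.45 and 1.63 in siPOLR1F, against 1.63, 1.81 and 1.82 in NC. These groups met at their edges, and the mean difference was -0.33 (exact two-sided permutation p = 0.2, 0.3 adjusted over the 3 ratios). The log2 ratio of MAP2K1 to MAP2K2 was 0.30, 0.12 and 0.32 in siPOLR1F, against 0.12, 0.09 and 0.06 in NC, a mean difference of 0.15 (exact permutation p = 0.2, 0.3 adjusted). The log2 ratio of HRAS to NRAS was -0.96, -0.83 and -0.88 in siPOLR1F, against -1.13, -0.84 and -0.86 in NC, a mean difference of 0.05 (exact permutation p = 0.8, 0.8 adjusted). With 3 libraries a group no p below 0.1 was possible. The HRAS to NRAS difference rested on NC replicate 1, and without it was -0.04.

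**Figure D4:**
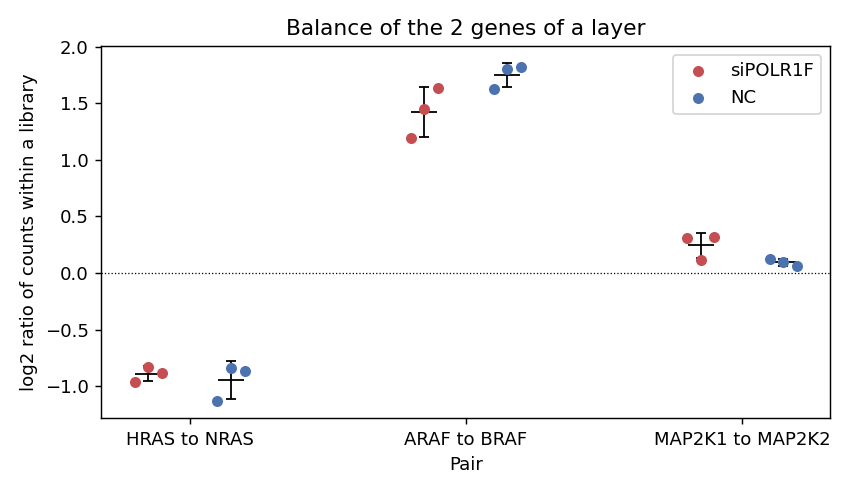
Log2 ratio of the counts of the 2 genes of each layer within a library. Points are libraries, and bars are the mean and SD of 3 libraries. ARAF to BRAF averages 1.42 in siPOLR1F and 1.75 in NC, and the groups touch in all 3 pairs.

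By deposited FPKM, NRAS was the most abundant of the 7 in both groups, followed by MAP2K1. In siPOLR1F the order went on with HRAS, ARAF, MAP2K2, MAPK3 and BRAF. In NC ARAF stood before HRAS, and the rest was the same. The 4 upper genes each overlapped their neighbour in this order between libraries, as did MAP2K2 and MAPK3; in both groups the fourth gene lay above MAP2K2 in every library, and BRAF lay below all others. Averaged over the 6 libraries, 6 of the genes lay above 81.3% to 87.3% of all genes tested, and BRAF above 13.6%.

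This order depends on the gene length used. The lengths that the deposited FPKM imply were 23501 bases for BRAF, 7769 for MAP2K2, 6462 for MAP2K1, 4324 for NRAS, 3673 for MAPK3, 3409 for ARAF and 2433 for HRAS. The longest protein-coding transcripts in GENCODE 29 have 9578, 1734, 3410, 4449, 2567, 2504 and 1233 bases for the same genes in the same order. The deposited table lists 15 transcripts for BRAF, 13 for MAP2K2 and 1 for NRAS. With the GENCODE lengths the mean over 6 libraries became 72.5 FPKM for MAP2K2, 41.6 for HRAS, 41.5 for MAP2K1, 27.5 for ARAF, 22.5 for MAPK3, 21.8 for NRAS and 2.41 for BRAF. NRAS then stood above BRAF alone and MAP2K2 moved to the top, while BRAF was lowest with both lengths. A change of length alters the level of a gene alone, not its fold change between groups.

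Stretches shared with other loci could divide reads between genes. No base string of length 100 from the longest coding transcripts of HRAS, NRAS, ARAF or MAPK3 occurred in a transcript of another gene in GENCODE 29. The strings were searched in the direction of each transcript alone, so overlaps with genes on the other strand do not show in this search. MAP2K1 shared 2 of 3311 such strings with the pseudogene MAP2K1P1, which had 7 to 24 counts per library. MAP2K2 shared 86 of 1635 with AC011005.1, at 2 to 19 counts. BRAF shared 12 of 9479 with the pseudogene BRAFP1, which has no row in the deposited table. SNAPC5, which overlaps the 3′ end of MAP2K1 on the other strand, had a log2 change of -0.0093 by edgeR (adjusted p = 0.966). ENSG00000261351, on that strand too, shares 2999 bases with MAP2K1 and had 90, 89 and 80 counts in siPOLR1F, against 65, 55 and 64 in NC. RPL35AP32, also on that strand, shares 323 bases with MAP2K1 and had at most 3 counts. On the strand opposite ARAF, ENSG00000289890 shares 178 bases, with 33, 19 and 13 counts in siPOLR1F, against 28, 20 and 17 in NC. SYN1, on the same strand, shares 8 bases with ARAF and had at most 13 counts. Opposite HRAS, ENSG00000289997 shares 21 bases and had at most 5 counts.

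By root-mean-square difference of centred log2 CPM over the 6 libraries, the genes most like BRAF were CEP95 (difference 0.037), PARP6 (0.037) and ATF7 (0.043), whose log2 fold changes were 0.32, 0.28 and 0.39. The gene nearest to HRAS was DNMT1 (0.013), to NRAS CSE1L (0.020), to ARAF AP5B1 (0.019), to MAP2K1 RUVBL1 (0.012), to MAP2K2 TRABD (0.015) and to MAPK3 TRIM66 (0.017).

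Genes around the 7 members were described through 10 lists of regulators, partners and targets, which together hold 125 genes tested. Of these, 20 rose, 7 fell and the median log2 fold change was 0.04. That is 21.6% called, against 17.2% of all genes tested. By list the share called ran from 12.5% to 30.8%, around that 17.2%, in lists of only 7 to 25 genes tested. The count varied with the libraries, as 12 rose and 3 fell without NC replicate 3, 13 and 1 without siPOLR1F replicate 1, 13 and 1 without replicate 2, and 11 and 2 without replicate 3.

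Among 14 adaptors and exchange factors for RAS or RAP1, 4 rose and 10 did not pass (median log2 fold change 0.12). The RAS exchange factors SOS1 and SOS2 did not pass, with log2 fold changes of -0.19 and -0.25. RAPGEF2, like RAPGEF1 an exchange factor for RAP1, rose by 0.24 on the log2 scale (edgeR adjusted p = 0.0446). The RAPGEF2 call was not followed over the alternatives or with libraries left out. RAPGEF1, an exchange factor for RAP1, averaged 15.2 ± 0.577 FPKM in siPOLR1F and 10.1 ± 1.07 FPKM in NC (SD, n = 3 each), a log2 change of 0.60 by edgeR (adjusted p = 0.0019). PTPN11, the phosphatase SHP2, which relays receptor signals to RAS, rose by 0.34 on the log2 scale, and the adaptor CRK rose by 0.23. The PTPN11 call was lost without NC replicate 3, siPOLR1F replicate 1 or siPOLR1F replicate 3 (edgeR adjusted p from 0.0513 to 0.0563; 1.80e-04 to 0.0586 over all alternatives). The CRK call was lost without any library but NC replicate 2 (0.0683 to 0.138; 0.00801 to 0.139 over all alternatives). Among 7 RAS relatives, 1 rose and 1 fell (median -0.11). RIT1, a GTPase that activates the cascade, averaged 4.09 ± 0.417 FPKM in siPOLR1F and 2.55 ± 0.175 FPKM in NC (SD, n = 3 each), a log2 change of 0.69 by edgeR (adjusted p = 0.0050). RAP1A, a GTPase related to RAS, fell by 0.25 on the log2 scale, and its call was lost when any one siPOLR1F library was left out (edgeR adjusted p 0.0577 to 0.0646; 0.00172 to 0.0646 over all alternatives).

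Of 8 GTPase-activating proteins, which switch small GTPases off, 1 rose and 1 fell (median 0.03). RASA1 averaged 5.98 ± 0.542 FPKM in siPOLR1F and 10.2 ± 1.60 FPKM in NC (SD, n = 3 each), a log2 change of -0.76 by edgeR (adjusted p = 0.0047). RASA3 had a log2 change of 0.49 by edgeR (adjusted p = 0.0018). Of 13 genes for RAS processing, trafficking and turnover, 3 rose and 1 fell (median 0.02). ICMT, which methylates the lipid-bearing end of RAS proteins, averaged 32.6 ± 1.92 FPKM in siPOLR1F and 21.1 ± 2.04 FPKM in NC (SD, n = 3 each), a log2 change of 0.64 by edgeR (adjusted p = 0.0014). FNTA, the shared subunit of the farnesyl and geranylgeranyl transferases, rose by 0.27 on the log2 scale. LYPLA1, which removes palmitate from proteins including RAS, fell by 0.19, and its call was lost without any 1 of the 6 libraries (edgeR adjusted p from 0.0603 to 0.129; 0.0172 to 0.129 over all alternatives).

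Of 25 scaffolds and RAF regulators, 3 rose and 1 fell (median 0.02). YWHAG, a 14-3-3 protein of the family that binds phosphorylated RAF, averaged 65.9 ± 1.57 FPKM in siPOLR1F and 45.3 ± 2.96 FPKM in NC (SD, n = 3 each), a log2 change of 0.55 by edgeR (adjusted p = 7.7e-04). The kinase gene PAK2 rose by 0.22, and LAMTOR3, the MEK partner MP1, fell by 0.34. The PAK2 call was lost without siPOLR1F replicate 1, siPOLR1F replicate 3, NC replicate 2 or NC replicate 3 (edgeR adjusted p from 0.0603 to 0.126; 0.00713 to 0.126 over all alternatives). The LAMTOR3 call was lost without any library but NC replicate 2 (0.0549 to 0.0813; 0.00474 to 0.0813 over all alternatives). Of 8 MAP3K genes outside the RAF family, 1 fell and 7 did not pass (median -0.01). MAP3K13 had a log2 fold change of -0.36, and its call was lost without NC replicate 3 or any one siPOLR1F replicate (edgeR adjusted p 0.0552 to 0.0636; 0.00255 to 0.0636 over all alternatives).

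Of 13 MEK and MAP kinase genes outside MEK1, MEK2 and ERK1, 3 rose and 10 did not pass (median 0.04). MAPK6, the atypical kinase ERK3, averaged 15.4 ± 1.18 FPKM in siPOLR1F and 7.75 ± 0.644 FPKM in NC (SD, n = 3 each), a log2 change of 1.00 by edgeR (adjusted p = 3.0e-04). MAP2K7, which activates the JNK kinases, rose by 0.35 on the log2 scale. NLK, an atypical MAP kinase, rose by 0.32, and its call was lost without any 1 of the 6 libraries (edgeR adjusted p from 0.0563 to 0.128; 0.0156 to 0.128 over all alternatives).

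Downstream of ERK, 2 of 18 substrates rose and 1 fell (median 0.08). The eIF4E kinase gene MKNK2 rose by 1.00 on the log2 scale and the transcription factor gene ELK4 by 0.64 (edgeR adjusted p = 8.2e-05 and 0.0036). STMN1, a microtubule regulator, fell by 0.20, and its call was lost when any one siPOLR1F library was left out (edgeR adjusted p 0.0528 to 0.0720; 0.00282 to 0.0869 over all alternatives). Of 11 phosphatases that can act on ERK, 2 rose and 9 did not pass (median 0.11). The nuclear ERK phosphatase DUSP5 averaged 41.7 ± 4.34 FPKM in siPOLR1F and 28.6 ± 3.75 FPKM in NC (SD, n = 3 each), a log2 change of 0.55 by edgeR (adjusted p = 0.0106). DUSP2 had a log2 fold change of 0.56, and its call was lost without any library but NC replicate 2 (edgeR adjusted p from 0.0626 to 0.0922; 0.00361 to 0.0922 over all alternatives).

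Of 10 transcripts often used as a read-out of ERK activity, 1 rose and 1 fell, and the other 8 did not pass (median 0.12). SPRY2, an inhibitor of receptor signalling to RAS, averaged 16.6 ± 0.862 FPKM in siPOLR1F and 12.8 ± 1.07 FPKM in NC (SD, n = 3 each), a log2 fold change of 0.38. EPHA4, an ephrin receptor, averaged 1.81 ± 0.145 FPKM in siPOLR1F and 2.59 ± 0.320 FPKM in NC (SD, n = 3 each), a log2 fold change of -0.51. The SPRY2 call was lost without siPOLR1F replicate 2 or 3 (edgeR adjusted p from 0.0514 to 0.0566; 1.51e-04 to 0.0570 over all alternatives). The EPHA4 call was lost without NC replicate 3 or siPOLR1F replicate 1 or 2 (0.0556 to 0.0606; 4.42e-04 to 0.0842 over all alternatives).

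**Figure D5:**
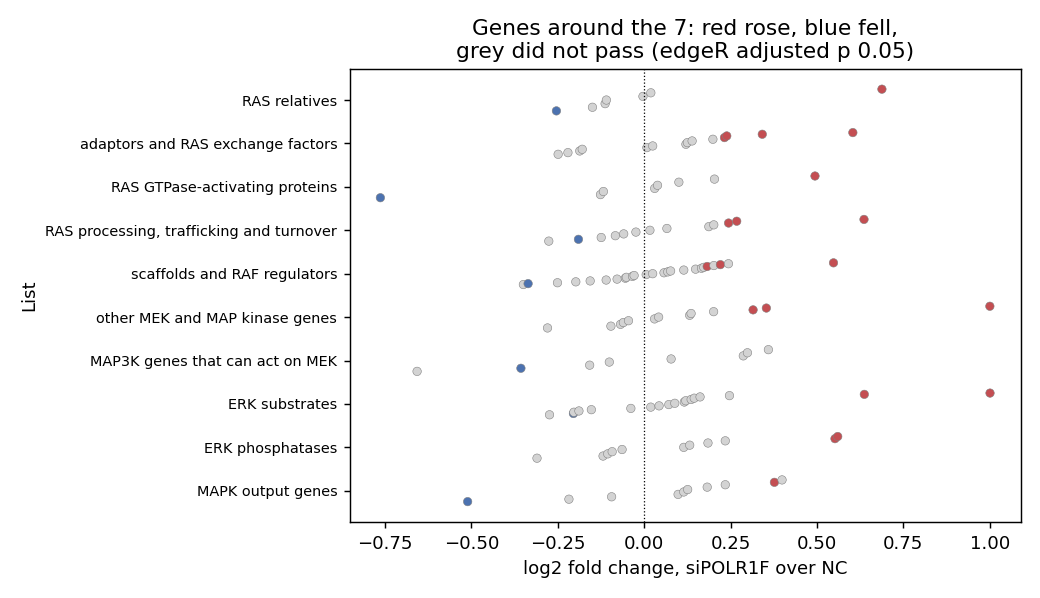
Log2 fold change, siPOLR1F over NC, of each gene tested in the 10 lists around the cascade; 1 point is 1 gene, and height within a list only separates points. Genes that passed edgeR at an adjusted p of 0.05 are red (higher) or blue (lower); MAPK6 and MKNK2 lie farthest right, at 1.00, and RASA1 farthest left, at -0.76.

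The deposited table assigns all 7 members to the KEGG term for MAPK signalling, a term taken up after the values were seen. Of its 199 genes tested, 29 rose and 12 fell, which is 20.6% called, against 17.2% of all genes tested, with a median log2 fold change of 0.0081. The KEGG term for thyroid cancer holds 6 of the 7, and of its 30 genes tested 4 rose and 1 fell (16.7% called, near the same 17.2%, median 0.02).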

How the data were processed

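Per the labels, poly(A) RNA from 3 siPOLR1F and 3 NC libraries was sequenced as paired reads. The tools named, per the submitters' processing notes, are HISAT2, StringTie and fastp, with build GRCh38 (hg38). Their versions, the annotation and the strand setting are not stated in any source used. The authors deposited whole-number counts and FPKM per gene. Counts were tested with edgeR 4.0.16 (TMM, glmQLFit, glmQLFTest; R 4.3.3) over the 13564 genes whose mean FPKM reached 0.5, which held 99.4% to 99.5% of the counts of each library, with Benjamini-Hochberg adjustment over all of them at 0.05. The SE was the log2 fold change divided by the root of the F statistic. Limma 3.58.1 and DESeq2 1.42.0 were alternatives. The test was checked on simulated data.

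Implied lengths are the count divided by FPKM and library total, scaled by the median ratio (1.10 to 1.12 by library) to annotated length in 716 genes with 1 transcript; 82.8% to 83.0% of these lay within 5% of that median. Likeness was computed on edgeR log2 CPM.

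Members and lists were chosen with earlier results of these data known, and no list was tested as a set. Named genes were the members, POLR1F, up to 3 called genes per list by adjusted p, the nearest genes by likeness and genes that overlap a member. NKX2-1, CD68, KRT18, KRT19, EPCAM, CDH1, RAPGEF2, SOS1 and SOS2 were named after their values were seen. NDUFB2 counted with BRAF, GENCODE 29 lengths and the KEGG terms were added after the data were seen. Other genes of the cascade are not reported here.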

Additional observations from a re-analysis of the deposited data

How the results depend on the processing

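Outside the libraries left out, DESeq2, DESeq2 size factors, library size alone, filterByExpr and the replicate block kept 1 member called as higher, BRAF (log2 fold change 0.33 to 0.36). With limma at a pseudocount of 1 or 0.1 and without a filter, 0 members were called, and leaving out 1 library gave 0 to 1. With NDUFB2 counted in, the pair had -0.036 and 0 members were called. That sum does not test BRAF by itself, since opposite changes of similar size cancel in it. No member was called lower under any alternative. ARAF, MAP2K2 and MAPK3 had values so near 0 that their sign changed: ARAF to -0.0090 with library size alone and -0.0012 and -0.0011 with limma at pseudocounts of 1 and 0.1; MAP2K2 to -0.0063, -1.7e-04 and -1.4e-04 under the same settings; MAPK3 to 2.9e-04 without a filter and 0.017 with filterByExpr. Leaving out 1 library gave -0.065 to 0.050 for ARAF, -0.042 to 0.037 for MAP2K2 and -0.066 to 0.037 for MAPK3. Without 1 library the ratio differences ranged from -0.040 to 0.11 for HRAS to NRAS, -0.43 to -0.21 for ARAF to BRAF and 0.12 to 0.22 for MAP2K1 to MAP2K2. As ratios of log2(FPKM + 1) they were 0.05, -0.16 and 0.15 for the same pairs. Over all genes, 663 rose and 313 fell without a filter, and 730 to 1326 rose and 423 to 841 fell without 1 library. In the 10 lists these counts were 10 and 2 without a filter, and 11 to 18 and 1 to 7 without 1 library. FilterByExpr called 1343 higher and 629 lower against 1391 and 942. With GENCODE 29 lengths the mean FPKM moved to 41.6 for HRAS, 27.5 for ARAF, 2.41 for BRAF, 41.5 for MAP2K1, 72.5 for MAP2K2 and 22.5 for MAPK3. The causes were not tested. For POLR1F, NDUFB2 and the list genes named by adjusted p there were 364 alternatives. Of these, 295 kept direction and side of the threshold, 69 no longer passed and 0 reversed. DUSP5 did not pass without a filter (edgeR adjusted p = 0.0676).

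Deviations of libraries with the same replicate number correlated at 0.29, 0.03 and 0.28, and each library correlated best with its own number. Numbers 1 and 3 crossed between the groups gave -0.28 and -0.27. The main tests did not take the numbers as pairs and so leave this structure out. A replicate block gave 1517 higher and 1125 lower genes, 22 and 7 in the lists, and BRAF at an edgeR adjusted p of 0.0424. It ended the calls of LYPLA1 (0.0608) and NLK (0.0562). The ratio differences of 0.05, -0.33 and 0.15 cannot change under such a block, since each number occurs once in each group.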
